A study of Mus musculus with 32 samples.

Results

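Matrix metalloproteinases (MMPs) are zinc-dependent proteases that cut the proteins of the extracellular matrix, and the tissue inhibitors of metalloproteinases (TIMPs) bind and block them. The 10 genes described here are 6 metalloproteinases (Mmp2, Mmp3, Mmp9, Mmp12, Mmp13 and Mmp14) and the 4 inhibitors (Timp1, Timp2, Timp3 and Timp4). They were chosen by name from the 32285 genes of the count table, and all 10 were found in it. The genes are measured in total RNA of 32 whole bladders from female C57BL/6 mice.

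The bladders fell into 6 groups. The young (2 months, n = 6), middle-aged (10 months, n = 5) and untreated old (26 months, n = 6) mice received no treatment. The other 3 groups were also 26 months old and had been gavaged each month from 21 to 26 months of age, for 3 consecutive days each time. They received water (n = 5), the vehicle alone, a mixture of Phosal, polyethylene glycol and ethanol (n = 4), or the senolytic combination D+Q in that vehicle (n = 6). D+Q is dasatinib, a kinase inhibitor given at 5 mg/kg/day, with quercetin, a plant flavonoid given at 50 mg/kg/day. The study asked how bladders change with age and whether D+Q alters that change in old mice. The labels number the bladders within each group and say nothing of how mice were housed or processed in batches. The p-values set each group difference against the spread between these bladders. A batch that went with group could not be told apart from group.

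Most MMPs are made as inactive precursors that another protease must cut before they act, so RNA level is not activity. Mmp14 sits in the cell membrane and, with Timp2 as a bridge, activates Mmp2. Fibroblasts and smooth muscle are usual sources of Mmp2, Mmp14, Timp2 and Timp3. Mmp3 belongs to the stromelysins and can activate other MMPs, Mmp12 is known as macrophage elastase, and Mmp13 is the main rodent collagenase for fibrillar collagen. Mmp3 and Mmp13 are commonly listed among factors that senescent cells secrete.

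The depth was 15088372 to 52650259 counts per bladder, so that 3 counts, taken here as the floor of detection, corresponded to 0.057 to 0.199 CPM. CPM are counts scaled to a common library size, here normalised for library composition with the TMM method. Urothelial markers (8 genes, summed level 4700 to 6251 CPM over the bladders) and smooth muscle markers (6 genes, 23509 to 38199 CPM) were high in all 32 bladders, as the bladder label requires. No pair of replicates was identical. In whole tissue, fewer cells of a type and less RNA per cell cannot be told apart.

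TPM, which divide counts by exon length before scaling to a common total, allow levels of different genes to be set side by side. In untreated old bladders, Timp2 was the highest of the 10 genes, at 918 ± 62.9 TPM (mean ± SD, n = 6), and Mmp2 was second, at 371 ± 29.0 TPM. Timp3 (142 ± 10.4 TPM) and Mmp14 (139 ± 9.0 TPM) came next and did not differ beyond their spread. Mmp9 (29.2 ± 3.43 TPM) was followed by Timp1 (16.9 ± 3.31 TPM) and Mmp3 (14.7 ± 4.14 TPM), whose values overlapped. Timp4 (1.01 ± 0.300 TPM) and Mmp12 (0.910 ± 0.416 TPM) also overlapped, and Mmp13 was lowest, at 0.227 ± 0.148 TPM. In young bladders the same 4 genes led, and Mmp3 stood at 2.79 ± 0.90 TPM, below Timp1 at 28.0 ± 6.14 TPM.

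**Figure D1:**
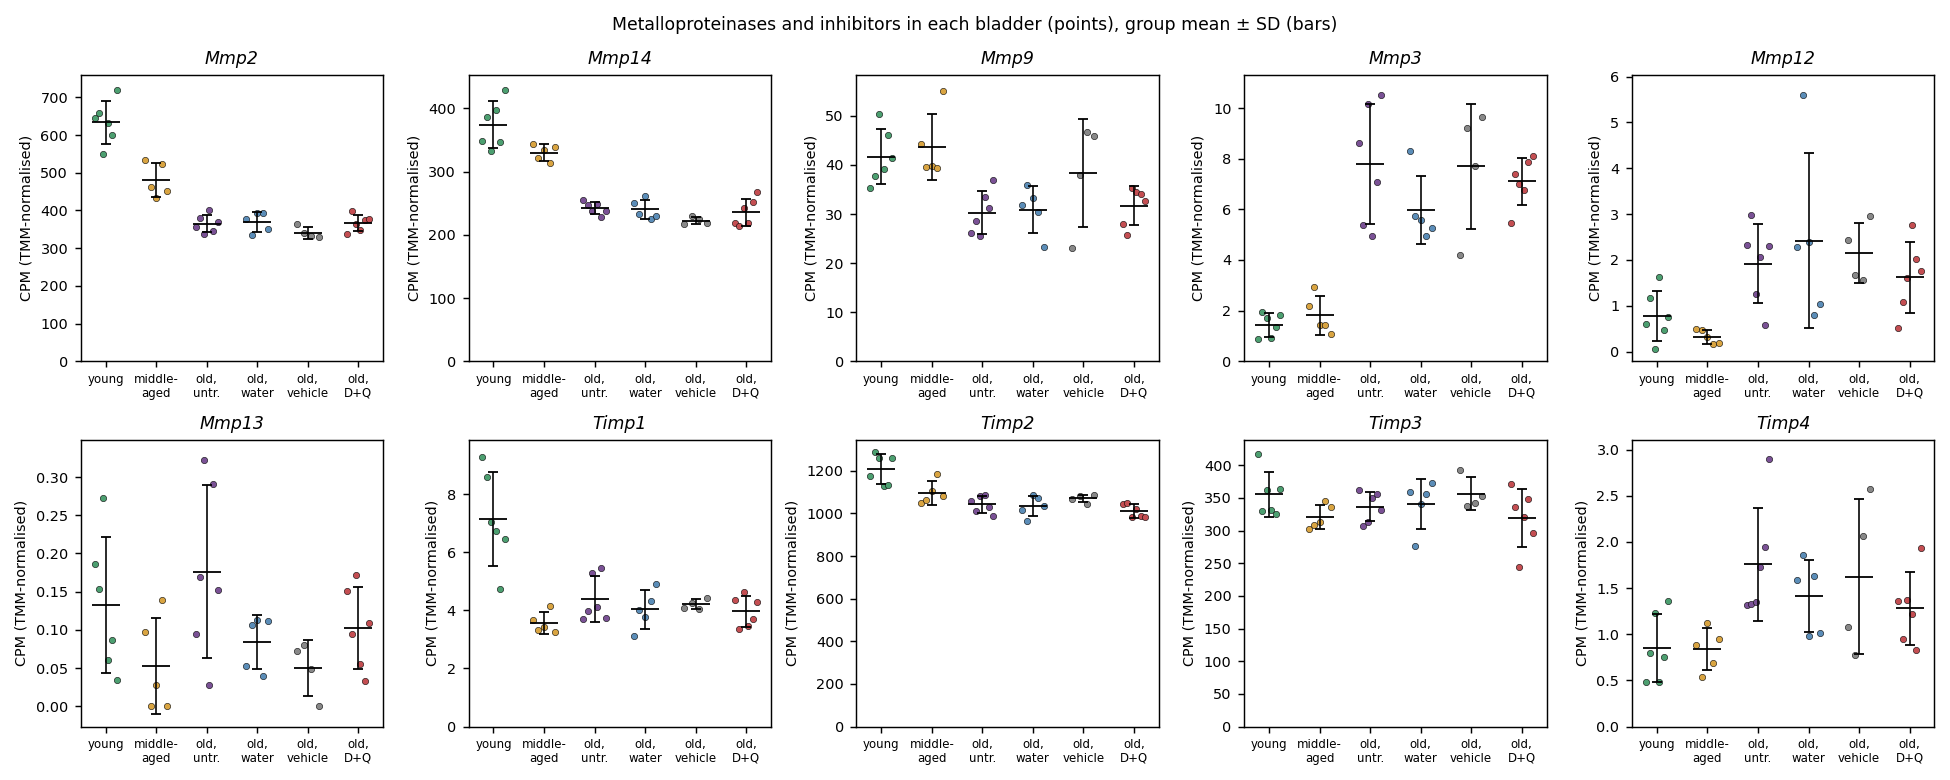
TMM-normalised CPM (vertical axes, linear) of the 10 genes in each of the 32 bladders (points), with the mean and SD of each group (bars). Mmp3 lies between 4.21 and 10.5 CPM in the 21 old bladders and between 0.897 and 2.95 CPM in the 11 younger ones, whereas Mmp2 and Mmp14 are lower in every old bladder than in any younger one.

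Between middle age and old age, 6 of the 9 genes that could be tested changed: Mmp3, Mmp12 and Timp4 rose, and Mmp2, Mmp9 and Mmp14 fell. The 3 that rose are set against a background of 13% of all 17156 tested genes called higher in old age, and the 3 that fell against 11% called lower (edgeR quasi-likelihood test, Benjamini-Hochberg adjusted p under 0.05). The values of each of the 6 did not overlap between the groups, which held for 14.6% of all tested genes. Timp1, Timp2 and Timp3 did not pass the test. The median log2 fold change was 0.069 over the 9 genes and -0.0047 over all tested genes.

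Mmp3 (ENSMUSG00000043613; mm10 chromosome 9, 7445822 to 7455975, plus strand) had the clearest rise. It measured 1.06, 1.42, 1.44, 2.19 and 2.95 CPM in the middle-aged bladders. In the untreated old bladders the lowest value was 4.96 CPM, the median 7.83 CPM and the highest 10.5 CPM. The ranges of the age groups left a gap between 2.95 and 4.96 CPM. The mean rose from 1.81 ± 0.756 CPM (n = 5) to 7.78 ± 2.37 CPM (n = 6), a log2 fold change of 2.11 (SE 0.28, adjusted p = 0.00019 by edgeR).

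Mmp12 (ENSMUSG00000049723; chromosome 9, 7344381 to 7369499, plus strand), the elastase named for macrophages, rose from a much lower level. The middle-aged bladders held 0.166, 0.190, 0.328, 0.475 and 0.489 CPM, from 6 to 15 counts each. The untreated old bladders ranged from 0.582 CPM over a median of 2.19 CPM to 2.99 CPM, from 24 to 121 counts each. The groups did not overlap, although the lowest old bladder came close to the highest middle-aged one. On the log2 scale the rise was 2.56 (SE 0.42, adjusted p = 0.000852 by edgeR). The young bladders overlapped both other groups, and the difference was smaller when counted from youth. They ranged from 0.0682 CPM, a single count, over a median of 0.682 CPM to 1.62 CPM. Untreated old exceeded young by a log2 fold change of 1.29 (SE 0.45) at an adjusted p of 0.0509 by edgeR, just past the threshold. DESeq2 put that adjusted p at 0.0224.

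Timp4 (ENSMUSG00000030317; chromosome 6, 115241892 to 115252205, minus strand) was the single inhibitor that rose with age. It measured 0.539, 0.693, 0.881, 0.950 and 1.12 CPM in middle-aged bladders. Untreated old bladders ranged from 1.32 CPM over a median of 1.54 CPM to 2.90 CPM. The rise was 1.08 on the log2 scale (SE 0.25, adjusted p = 0.00726 by edgeR), and against young bladders it was 1.07 (SE 0.29, adjusted p = 0.0148 by edgeR). The old bladders lay above all middle-aged ones, while the highest young value, 1.36 CPM, reached into the old range. Between young and middle age the log2 difference was -0.00046 (95% confidence interval -0.67 to 0.66).

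Mmp13 (ENSMUSG00000050578; chromosome 9, 7272514 to 7283331, plus strand) had 0 to 12 counts per bladder and was removed by the low-count filter in every comparison. Its counts were 0, 0, 1, 3 and 5 in the middle-aged bladders, of which 4 were at or under 3 counts. They ran from 1 to 12 in the untreated old bladders, with 2 of 6 at or under 3 counts, and from 1 to 5 in the young ones. All 4 vehicle-treated bladders were at or under 3 counts. An exact permutation test of log2(CPM + 0.1) between untreated old and middle-aged bladders gave a two-sided p of 0.0433, where 0.00433 is the smallest this design allows. With Benjamini-Hochberg adjustment over the 8 comparisons made for this gene the value was 0.236, so no change was shown at this depth. No fold change is given for counts so close to the floor.

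Mmp3, Mmp12 and Mmp13 lie in 1 cluster of MMP genes on chromosome 9, which spans 10 such genes over 427 kb in the GENCODE annotation (Mmp13, Mmp12, Mmp1b, Mmp3, Mmp1a, Mmp10, Mmp8, Mmp27, Mmp20 and Mmp7, in that order). Of the 9 cluster genes that were counted, Mmp3 and Mmp12 reached the highest counts, up to 552 and 211 in a bladder. Mmp13 reached 12 and Mmp10, another stromelysin, 47. Mmp1b was at 0 in all 32 bladders. The sequences before the start sites of the 3 members are shown because these neighbours share a short motif there. Promoters were taken from RefSeq (GRCm38.p6), which gave an entry for 8 of the 10 genes and none for Mmp2 and Mmp9. The 150 bases before the start are printed 5′ to 3′ on the plus strand, with matches to the searched motifs in capitals. Mmp14, from chromosome 14, is added as an example from outside the cluster.
Mmp3, chr9:7445672-7445821: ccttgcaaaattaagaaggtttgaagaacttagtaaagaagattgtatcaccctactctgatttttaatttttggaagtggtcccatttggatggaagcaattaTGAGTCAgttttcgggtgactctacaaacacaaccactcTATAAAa
Mmp12, second of 2 listed starts, chr9:7347224-7347373: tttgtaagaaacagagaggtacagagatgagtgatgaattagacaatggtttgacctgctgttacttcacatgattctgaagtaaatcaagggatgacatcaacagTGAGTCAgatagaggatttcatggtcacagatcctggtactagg
Mmp13, chr9:7272364-7272513: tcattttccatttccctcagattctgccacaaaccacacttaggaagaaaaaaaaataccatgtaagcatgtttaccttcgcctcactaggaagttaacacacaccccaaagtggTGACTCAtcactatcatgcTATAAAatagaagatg
Mmp14, chr14:54431448-54431597: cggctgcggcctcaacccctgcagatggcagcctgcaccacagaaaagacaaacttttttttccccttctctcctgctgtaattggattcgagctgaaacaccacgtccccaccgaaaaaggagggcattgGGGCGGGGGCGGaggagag

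The letters TGAGTCA or TGACTCA, each the reverse complement of the other and known as the binding sequence of AP-1, began 46 bases before the start in Mmp3, 44 before it in Mmp12 and 35 before it in Mmp13. Windows of 300 bases (250 before and 50 after the start) were searched on both strands, and 5.2% of all 32851 promoters of that length held these letters. The first listed start of Mmp12 and the windows of Mmp14 and the 4 inhibitors held no match. The letters TATAAA (13.6% of all promoters) occurred in the windows of Mmp3, Mmp13 and the second start of Mmp12, where they lay just after the start and so outside the printed bases. GGGCGG, a binding sequence of Sp1 found in 35.7% of all promoters, occurred in Mmp14, Timp1, Timp2 and Timp3, in Mmp14 at 2 adjacent places (capitals in its line). A match describes the letters and shows no binding.

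The 3 metalloproteinases that fell form the system in which Mmp14 activates Mmp2, together with the second gelatinase, Mmp9. Mmp2 (ENSMUSG00000031740; chromosome 8, 92827291 to 92853420, plus strand), which degrades denatured collagen and collagen of the basement membrane, fell in steps. Young bladders ranged from 549 CPM over a median of 638 CPM to 719 CPM. Middle-aged bladders held 433, 451, 463, 524 and 533 CPM, and untreated old ones 338 CPM at the lowest, 362 CPM at the median and 401 CPM at the highest. No 2 of these 3 age groups overlapped. The log2 fold change was -0.39 from young to middle age (SE 0.075, adjusted p = 0.00804) and -0.40 from middle to old age (SE 0.062, adjusted p = 0.000597), both by edgeR. These comparisons share the middle-aged bladders.

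Mmp14 (ENSMUSG00000000957; chromosome 14, 54431612 to 54445364, plus strand), the membrane-bound activator, fell between middle and old age. Its level was 313, 321, 334, 339 and 343 CPM in middle-aged bladders. Untreated old bladders ranged from 228 CPM over a median of 243 CPM to 255 CPM. This was a log2 fold change of -0.45 (SE 0.036, adjusted p = 6.24e-06 by edgeR). From young (333 to 429 CPM, median 368 CPM) to middle age the log2 difference was -0.17 (SE 0.066), which did not pass the test (adjusted p = 0.117 by edgeR).

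Mmp9 (ENSMUSG00000017737; chromosome 2, 164940780 to 164955850, plus strand), the gelatinase that neutrophils and macrophages are known to store or secrete, was lower in old age than at either earlier age. It measured 39.3, 39.5, 39.7, 44.4 and 55.1 CPM in middle-aged bladders and 35.4 to 50.3 CPM (median 40.3 CPM) in young ones, a log2 difference of 0.079 (95% confidence interval -0.15 to 0.31). Untreated old bladders ranged from 25.5 CPM over a median of 29.8 CPM to 36.9 CPM. All 6 lay below all middle-aged bladders, and the highest of them overlapped the young range. The log2 fold change was -0.53 against middle age (SE 0.11, adjusted p = 0.00448) and -0.46 against youth (SE 0.10, adjusted p = 0.00584), both by edgeR.

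**Figure D2:**
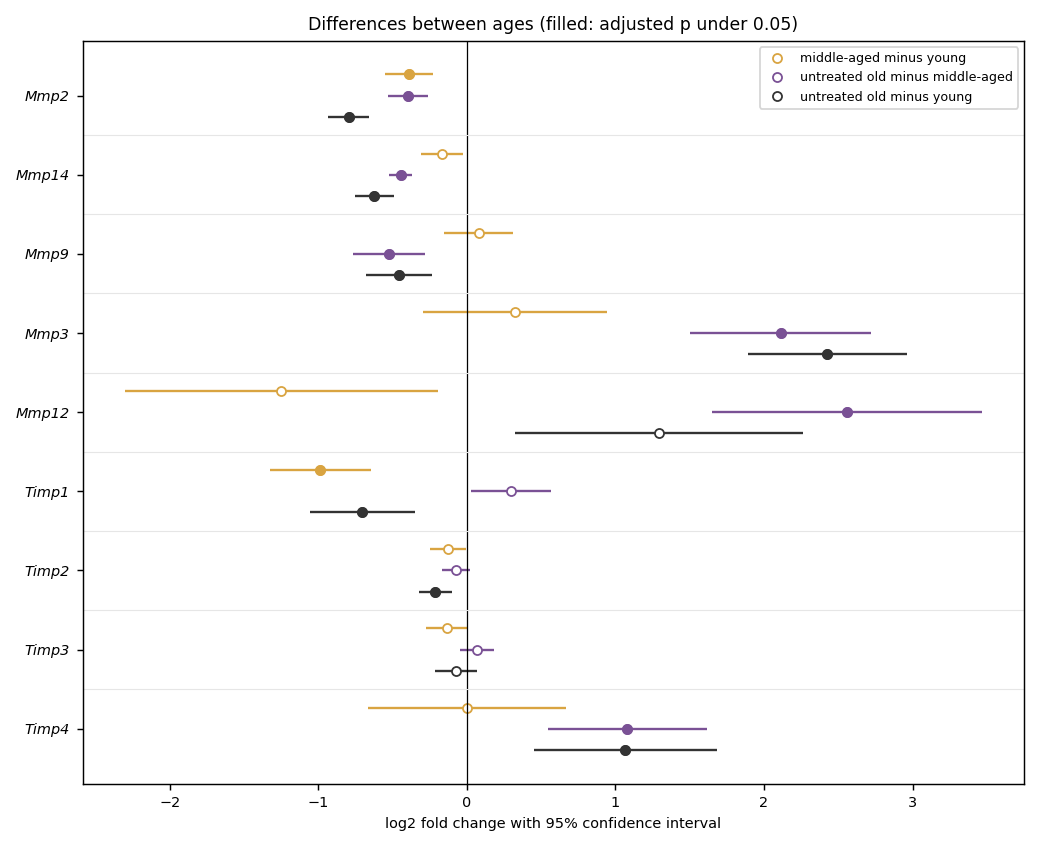
log2 fold changes between ages (horizontal axis) with 95% confidence intervals for the 9 tested genes, filled where the edgeR adjusted p is under 0.05. From middle to old age Mmp3 (2.11) and Mmp12 (2.56) lie far to the right of the other genes, and Mmp2, Mmp9 and Mmp14 lie between -0.40 and -0.53.

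Among the inhibitors, Timp1 (ENSMUSG00000001131; chromosome X, 20870166 to 20874735, plus strand), which inflammatory signals are known to induce, fell early. Young bladders ranged from 4.72 CPM over a median of 6.88 CPM to 9.27 CPM, and middle-aged ones held 3.26, 3.33, 3.42, 3.65 and 4.16 CPM, with no overlap. This gave a log2 fold change of -0.99 (SE 0.16, adjusted p = 0.00321 by edgeR). Untreated old bladders (3.71 to 5.46 CPM, median 4.04 CPM) overlapped the middle-aged ones, and the log2 difference of 0.30 (SE 0.12) did not pass the test (adjusted p = 0.106 by edgeR). Against youth Timp1 was still lower, by a log2 fold change of -0.70 (SE 0.16, adjusted p = 0.0065 by edgeR).

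Timp2 (ENSMUSG00000017466; chromosome 11, 118301069 to 118355740, minus strand), the partner of Mmp14, fell by little over the whole span. It measured 1128 to 1290 CPM (median 1218 CPM) in young bladders and 1048 to 1187 CPM in middle-aged ones. In untreated old bladders it measured 987 to 1087 CPM (median 1043 CPM), below all young bladders. The log2 fold change from youth was -0.21 (SE 0.051, adjusted p = 0.00777 by edgeR), while neither step alone passed the test (-0.13 to middle age and -0.073 from there). Timp3 (ENSMUSG00000020044; chromosome 10, 86300372 to 86349506, plus strand), the inhibitor that binds to the matrix, passed no test between ages. Its means were 355 ± 34.7 CPM in young (n = 6), 321 ± 18.1 CPM in middle-aged (n = 5) and 337 ± 22.8 CPM in untreated old bladders (n = 6), and the difference between old and middle age had a 95% confidence interval from -0.043 to 0.18 on the log2 scale.

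From young to middle age, 2 of the 9 tested genes changed, Mmp2 and Timp1, both lower. Over all 16754 genes tested 5.85% were called lower and 4.96% higher. The values of these 2 genes did not overlap between the groups, as for 6.97% of all tested genes. From youth to old age, Mmp3 and Timp4 were higher and Mmp2, Mmp9, Mmp14, Timp1 and Timp2 lower, against 12.6% and 12.4% of all 16873 tested genes called in those directions. Of these 7, Mmp2, Mmp3, Mmp14 and Timp2 did not overlap between the groups (12.7% of all tested genes). The log2 fold change of Mmp3 from youth was 2.43 (SE 0.25), that of Mmp2 -0.80 (SE 0.064) and that of Mmp14 -0.62 (SE 0.061), each with an adjusted p of at most 2.05e-05 by edgeR.

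The summed TPM of the 6 metalloproteinases was 923 ± 80.0 in young (n = 6), 749 ± 40.1 in middle-aged (n = 5) and 556 ± 33.0 in untreated old bladders (n = 6). Mmp2 and Mmp14 together made up 95.1%, 93.6% and 91.8% of these sums, so the sum follows those 2 genes. Mmp3 made up 0.303% in youth, 0.476% in middle age and 2.69% in old age. The summed TPM of the 4 inhibitors was 1267 ± 63.1, 1150 ± 48.5 and 1078 ± 70.01 in the same order, of which Timp2 made up 85.2% to 86.6%. The ratio of inhibitor to metalloproteinase RNA was 1.38 ± 0.126 in young, 1.54 ± 0.115 in middle-aged and 1.94 ± 0.122 in untreated old bladders. Its lowest old value, 1.80, lay above the highest younger value, 1.66. The sums and the ratio are descriptions of the chosen genes and carry no test.

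**Figure D3:**
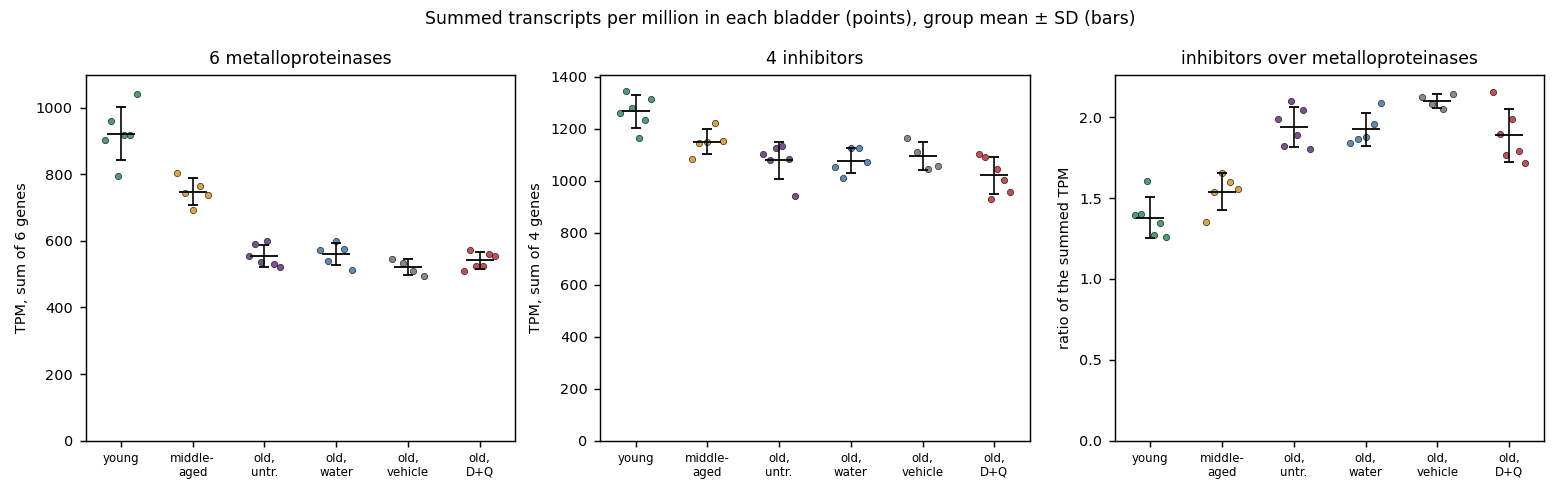
Summed TPM of the 6 metalloproteinases (left) and the 4 inhibitors (middle), and the ratio of the sums (right), in each bladder (points), with the mean and SD of each group (bars). The metalloproteinase sum falls from 923 in young to 556 in untreated old bladders, and the ratio rises from 1.38 to 1.94.

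No metalloproteinase or inhibitor passed the test in any comparison of gavaged old bladders. For D+Q against no treatment in old mice edgeR called 0 of the 9 genes and 0% of all 17037 genes tested. DESeq2 also called 0 of the 9, and 180 of all genes (1.06%). At an unadjusted p under 0.05 by edgeR there were 0 of the 9 genes and 2200 of all genes (12.9%). The lowest adjusted p among the 9 was 0.425 by edgeR, for Timp4, with a log2 difference of -0.46 (95% confidence interval -0.98 to 0.050).

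For most genes that changed with age, the D+Q-treated bladders stayed in the range of the untreated old ones or near it. Timp4 reached lower, from 0.830 CPM over a median of 1.29 CPM to 1.94 CPM. For this gene 3 of 6 D+Q-treated bladders lay below all untreated old ones and 0 above, and the lowest lay within the middle-aged range (0.539 to 1.12 CPM). The gavage controls reached as low for Timp4. Below all untreated old bladders lay 2 of 5 after water (lowest 0.984 CPM) and 2 of 4 after vehicle (lowest 0.778 CPM). D+Q differed by -0.32 (95% confidence interval -1.06 to 0.42) from vehicle and by -0.14 (-0.66 to 0.38) from water on the log2 scale. Timp1 also had 3 of 6 D+Q-treated bladders below all untreated old ones and 0 above. Mmp3 ranged from 5.47 CPM over a median of 7.20 CPM to 8.10 CPM, and its log2 difference from untreated old bladders was -0.13 (95% confidence interval -0.52 to 0.26). Mmp12 ranged from 0.514 CPM over a median of 1.69 CPM to 2.75 CPM, and its log2 difference was -0.24 with a wide interval, -1.07 to 0.59. The intervals of the abundant genes were narrow. That of Mmp2 ran from -0.10 to 0.11, that of Mmp14 from -0.16 to 0.077, that of Timp2 from -0.12 to 0.036 and that of Timp3 from -0.26 to 0.11 on the log2 scale. Mmp9 (-0.16 to 0.29) and Timp1 (-0.42 to 0.13) lay between.

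The gavage controls alone were set against the untreated old bladders as well. Water-treated against untreated old bladders had 0 of the 9 genes called, by edgeR and by DESeq2, where edgeR called 1% and DESeq2 4.08% of all genes. Mmp3 measured 4.96, 5.25, 5.60, 5.75 and 8.30 CPM after water, with a log2 difference of -0.39 (95% confidence interval -0.85 to 0.077). Mmp12 measured 0.807, 1.04, 2.27, 2.39 and 5.59 CPM, with the largest SD in CPM of any group for this gene (1.91). Vehicle-treated against untreated old bladders again had 0 of the 9 genes and 0% of all genes called by edgeR, and 0 of the 9 by DESeq2, which called 0.757% of all genes. Of the members, Mmp14 alone had an unadjusted p under 0.05 by edgeR there, as did 8.39% of all genes. It measured 218, 218, 224 and 230 CPM, with a log2 difference of -0.12 (95% confidence interval -0.20 to -0.041, unadjusted p = 0.00712, adjusted p = 0.455 by edgeR). Mmp9 held 23.0, 37.9, 45.9 and 46.7 CPM after vehicle, so 3 of 4 bladders lay above all untreated old ones and 1 lay below them. Its log2 difference was 0.34 (95% confidence interval -0.059 to 0.74).

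D+Q-treated bladders were also set against each gavage control. The vehicle is the closest match for the drugs themselves, since they were given in it, whereas water lacks it. Against vehicle, 0 of the 9 genes and 0% of all genes were called by edgeR, and 0 of the 9 and 0.0579% of all by DESeq2. Against water, it was again 0 of the 9 and 0% by edgeR, and 0 of the 9 and 0.402% of all by DESeq2. By edgeR no member had an unadjusted p under 0.05 in either comparison, where 722 and 1342 of all genes did. Timp2 in 5 of 6 and Timp3 in 4 of 6 D+Q-treated bladders lay below all vehicle-treated ones, and 0 above. Their log2 differences from vehicle were -0.085 (95% confidence interval -0.18 to 0.011) and -0.16 (-0.39 to 0.066). Mmp3 differed by -0.12 (95% confidence interval -0.56 to 0.33) from vehicle and by 0.25 (-0.056 to 0.56) from water on the log2 scale. Mmp12 differed by -0.39 (-1.20 to 0.42) and -0.57 (-1.63 to 0.48). The 5 comparisons among old bladders share samples, so their values are not independent of each other.

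**Figure D4:**
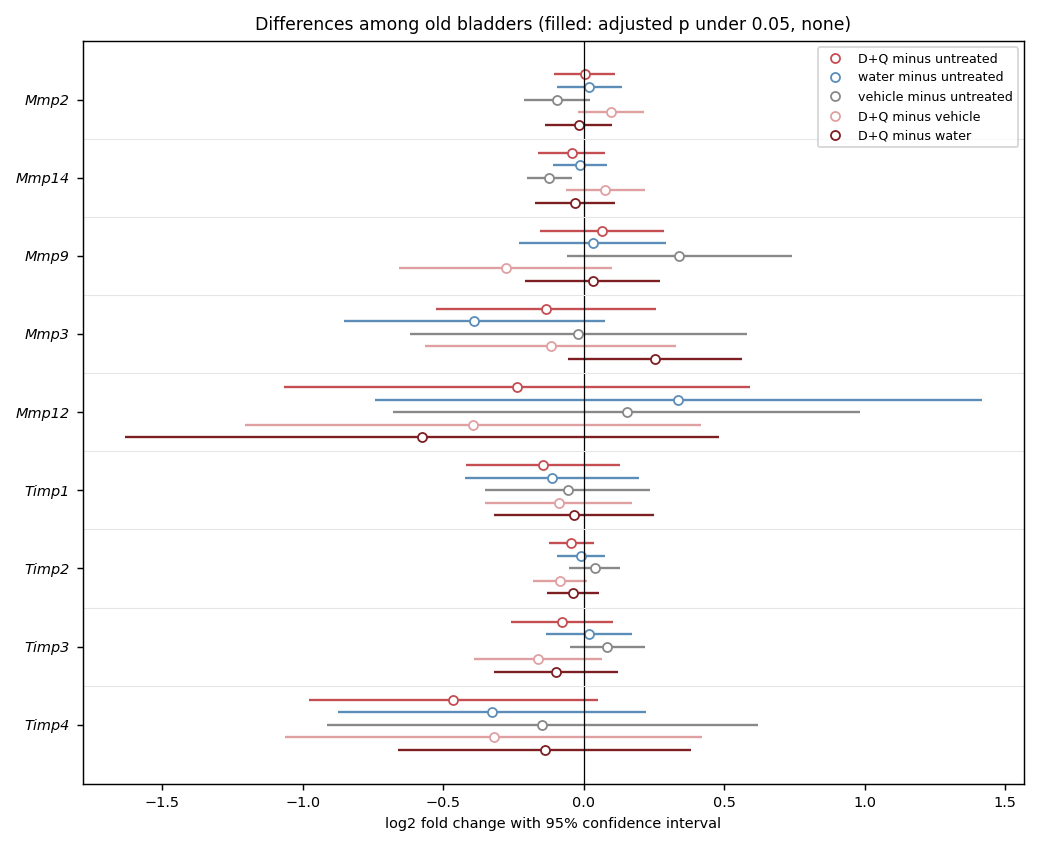
log2 fold changes among the old groups (horizontal axis) with 95% confidence intervals for the 9 tested genes in 5 comparisons. No point is filled, since none had an adjusted p under 0.05, and the intervals are widest for Mmp12 and Timp4.

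Taking the 21 old bladders of all 4 old groups as a description, Mmp3 lay above the highest of the 11 younger bladders in all 21. Mmp2 and Mmp14 lay below the lowest younger bladder in all 21. The other genes overlapped: Mmp9 lay below the younger range in 16 of the 21 and Timp2 in 12, and Mmp12 lay above it in 13 and Timp4 in 11. The ratio of inhibitor to metalloproteinase RNA was 1.93 ± 0.101 after water (n = 5), 2.10 ± 0.042 after vehicle (n = 4) and 1.89 ± 0.163 after D+Q (n = 6).

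Markers of several cell types moved between the same groups. Over all 17156 tested genes, 13% were called higher and 11% lower from middle to old age. From middle to old age, 7 of 8 macrophage markers rose, and their sum went from 439 to 512 CPM in middle-aged bladders to 609 to 1027 CPM in untreated old ones. The young bladders, at 440 to 919 CPM, overlapped both. In untreated old against young bladders 2 of the 8 markers were called higher, as were 12.6% of all tested genes. All 5 B cell markers rose from middle to old age, with sums of 3.29 to 8.77 CPM and 62.1 to 191 CPM. So did all 5 T cell markers, with sums of 5.71 to 7.67 CPM and 27.1 to 57.0 CPM. Of 8 neutrophil markers 1 could be tested, Csf3r, and it rose (log2 fold change 0.88). Their sums were 4.09 to 5.37 CPM and 5.97 to 14.2 CPM without overlap, and Ly6g was at or under 3 counts in every bladder of both groups. Of 7 fibroblast markers, 1 fell from middle to old age (Lum, log2 fold change -0.41), with sums of 7928 to 9802 CPM and 7518 to 8654 CPM. From young to middle age 5 had fallen, where 5.85% of all tested genes were called lower. Of 5 endothelial markers 2 fell and 0 rose, with sums of 226 to 248 CPM and 200.1 to 233 CPM. Of 8 urothelial markers 3 fell, with sums of 5152 to 5868 CPM and 4886 to 5234 CPM, and of 6 smooth muscle markers 1 fell, with sums of 24401 to 34062 CPM and 25123 to 29009 CPM. Of 4 Schwann cell markers 1 fell (sums of 112 to 129 CPM and 108 to 123 CPM). Of 4 tested skeletal muscle markers 1 rose and 1 fell (465.7 to 768 CPM and 379.9 to 495 CPM over 5 markers), and 0 of 5 mast cell markers were called by edgeR (43.1 to 74.3 CPM and 33.2 to 62.6 CPM). The part of these cells in the changes of the MMP and TIMP genes was not tested.

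Over the 32 bladders the Spearman correlation of Mmp3 with the macrophage sum was 0.78, with the T cell sum 0.77, with the neutrophil sum 0.76 and with the B cell sum 0.69. After removal of the group means these were 0.46, 0.27, 0.51 and -0.043. With the fibroblast sum Mmp3 stood at -0.59 and with the endothelial sum at -0.57, and at 0.082 and 0.14 within groups. Mmp12 stood at 0.57 with the macrophage sum and 0.61 with the T cell sum, and at 0.15 and 0.22 within groups, where its highest value was with the mast cell sum (0.48). For Mmp2 and the fibroblast sum the correlation was 0.62, and 0.40 within groups, and with the T cell sum it was -0.81 and -0.24. Mmp14 stood at 0.69 with the fibroblast sum and 0.64 with the endothelial sum, and at 0.16 and 0.068 within groups, where its highest value was with the urothelial sum (0.47). Mmp9 stood at 0.65 and 0.60 with the same 2 sums, and at -0.14 and 0.14 within groups. Timp4 correlated at 0.69 with the T cell sum, 0.67 with the B cell sum and 0.60 with the sum of 4 adipocyte markers, and at 0.17, 0.33 and 0.58 within groups. Its correlation with the endothelial sum was -0.27, and 0.54 within groups. The adipocyte sum ranged from 4.96 to 41.0 CPM in untreated old and from 7.49 to 21.8 CPM in middle-aged bladders, and 0 of its 4 markers passed the test. Mmp2 and Mmp14 correlated with each other at 0.82, and at 0.39 after removal of the group means. All of these values describe bladders that share group, library and depth, and carry no p.

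By the same measure over 18093 expressed genes, the patterns most like Mmp3 were those of Tent5c (0.90), Chil3 (0.88) and Abcb1b (0.87). After removal of the group means these stood at 0.66, 0.59 and 0.61. Most like Mmp12 were Folh1 (0.76), Jade2 (0.75) and Serpinb9b (0.73), at 0.42, 0.33 and 0.20 within groups. Timp4 was nearest to Plcl2 (0.79), Rgcc (0.79) and Sgf29 (0.77), at 0.64, 0.78 and 0.72 within groups. Among the genes that fell, Mmp2 was nearest to Scarf2 (0.87), Ctsk (0.86) and Itm2a (0.84), at 0.26, 0.54 and 0.59 within groups. Mmp14 was nearest to Ttyh1 (0.88), Cmtm3 (0.85) and Scarf2 (0.85), at 0.35, 0.47 and 0.24. Mmp9 was nearest to Sez6l, Mfap2 and Pcp4 (each 0.79), at 0.57, 0.17 and 0.62.

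Further proteases and regulators of MMP activity were also compared between middle and old age. Over all 17156 genes tested there, 13% were called higher and 11% lower. Of 17 further metalloproteinases, 16 were in the table and 8 could be tested. Mmp25, a membrane-anchored MMP of leukocytes, rose (log2 fold change 0.88) and 3 fell, of which Mmp11, a stromelysin of stromal cells, fell most (-0.52). The median of the 8 was -0.038.

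Among 19 ADAM and ADAMTS proteases, relatives of the MMPs, 5 rose, led by Adam8 (log2 fold change 0.67), and 1 fell, Adam33 (-0.25), with a median of 0.054. Of 9 tested regulators of MMP activity, 1 rose, the MMP-binding surface receptor Cd44 (0.31), and 0 fell, with a median of 0.014. The single rises among the further metalloproteinases and among the regulators were near the share called higher over all genes (13%). The medians over all tested genes were within 0.005 of 0 in each age comparison. Among the 5 comparisons of old groups, 0 genes of these 3 lists were called by edgeR. Of all tested genes, edgeR called 1% in water-treated against untreated old bladders and 0% in each of the others, so this count does not set the lists apart.

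The RNA of matrix proteins that these enzymes cut fell mainly between young and middle age. Of 17 tested fibrillar and basement membrane substrates, 12 fell from young to middle age and 0 rose, with a median log2 fold change of -0.68. Over all genes tested there, 5.85% were called lower and 4.96% higher. Elastin (Eln), the substrate of Mmp12, fell from 321 to 70.3 CPM on average (log2 fold change -2.18), the largest of these falls, and the collagen Col3a1 from 6012 to 2368 CPM (-1.33). From middle to old age, when Mmp3 and Mmp12 rose, 0 of the 17 were called in either direction by edgeR, and their median was -0.061. Of all genes tested there, 13% were called higher and 11% lower. From youth to old age 15 of the 17 fell and 0 rose, beside 12.4% of all tested genes called lower and 12.6% higher. Some of these substrate genes, collagens among them, also belong to the fibroblast markers. The falls of both lists are therefore not separate observations, and the fibroblast sum includes collagen RNA.

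Some counts could mix genes. The strand setting of the counting was not given in the sources used here, although the library kit keeps strand. Mmp12 shares 157 exon bases with Mmp1b on the other strand, Timp3 shares 1733 of its 8144 with Syn3 and Timp4 shares 90 of its 5894 with Syn2. Timp1 lies within Syn1 without shared exon bases. From middle to old age Syn1 rose (log2 fold change 0.87), whereas Syn2 (-0.11, adjusted p = 0.506) and Syn3 (0.026, adjusted p = 0.914) did not pass the edgeR test.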

How the data were processed

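Total RNA of 32 bladders was sequenced by the authors (Illumina TruSeq Stranded Total RNA kit, paired reads), aligned with STAR 2.7.3 to mm10 and counted per gene with featureCounts. Read filters and the strand setting of the counting are not given in the sources used here. The deposited table of raw counts (32285 genes, with exon lengths) was used for all main results. A second deposited table holds log2 values that the authors made from the same counts, with 1 added, divided by exon length and scaled to a sum of 100000, which recomputation matched. It served only as an alternative. Depth was 15088372 to 52650259 counts per bladder. Intervals of 95% come from the fits, and the floor of 3 counts covers counting error only.

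Groups came from the labels. Each of 8 comparisons was fitted on its 2 groups with edgeR 4.0.16 (filterByExpr, TMM, quasi-likelihood test) in R 4.3.3, with Benjamini-Hochberg adjustment over all genes tested and a threshold of 0.05. The tests were checked on simulated counts. Mmp13, under the filter, was tested by exact permutation on log2(CPM + 0.1). TPM were computed from the counts and exon lengths. Exon lengths join all annotated transcripts, so the TPM of a gene with many isoforms, such as Mmp12, is understated. Positions are from GENCODE M21. Alternatives were DESeq2 1.42.0, other filters, all 6 groups in one fit, limma 3.58.1 on log2(TPM + 1) and log2(TPM + 0.1), a replicate block and fits without each bladder in turn.

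The 10 genes and all lists were chosen with earlier results of these data known, so no list is given a test of its own. Beside the 10, genes were named by rule: for each member called between middle and old age, the 3 genes with the most similar pattern (Spearman correlation of log2(CPM + 0.1) over 32 bladders), and in each list the called genes with the largest change in each direction. Col3a1, Csf3r, Lum, Syn2, Syn3, Mmp1b, Mmp10 and Ly6g were named outside that rule, after their values were seen. Of the lists chosen, 1 is not reported here.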

Additional observations from a re-analysis of the deposited data

Results flagged for a closer look

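In 1 of the 60 sets formed by 10 genes and 6 groups, 1 bladder stood far from the others by Dixon's test at the 95% level. Mmp3 measured 8.30 CPM in replicate 1 of the water-treated old bladders, from 157 counts, and the next highest of the 5 water-treated bladders had 5.75 CPM. The gap was 0.764 of the group's range, where the critical value for 5 samples is 0.71. Chance flags about 1 in 20 such sets. The cause was not tested.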

How the results depend on the processing

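Of 697 refitted log2 fold changes of single genes, 670 kept their direction and their side of the threshold, 11 passed it newly, 0 lost it and 16 changed sign. All 15 fold changes called between ages stayed called in every setting in which the gene could be tested. The number of members called stayed within 1.5 times the main count in 7 of the 8 comparisons. The exception was middle-aged against young, where all 6 groups in one fit called 4 genes in place of 2, by adding Mmp14 (adjusted p = 0.0373 by edgeR) and Timp2 (adjusted p = 0.0219 by edgeR). Leaving out each bladder gave 2 to 3 there, 6 to 6 for untreated old against middle-aged, 7 to 8 against young and 0 to 0 in each comparison among old groups. Without young replicate 3, Mmp12 passed between young and middle age (-1.43, adjusted p = 0.041 by edgeR). Between young and old it passed in 6 different fits, with adjusted p from 0.0178 to 0.0482 (DESeq2, edgeR). The exact permutation p of Mmp13 between middle and old age was 0.0519 with log2(CPM + 1).

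The sign changes all concerned differences near 0. From young to middle age Timp4 stood at 0.021 by limma on log2(TPM + 0.1), and leaving out each bladder gave -0.13 to 0.20 for Timp4 and -0.019 to 0.14 for Mmp9. For D+Q against no treatment Mmp2 stood at -0.024 by limma with either pseudocount, and leaving out each bladder gave -0.021 to 0.034.

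The replicate numbers of the titles gave no clear sign of pairing. For untreated old and middle-aged bladders the deviations of same-numbered bladders correlated at -0.095 to 0.14, and over all comparisons at -0.30 to 0.16. With the title numbers as a replicate block, 2, 6 and 8 members were called in the 3 age comparisons and 0 in the others. Timp4 then stood at 0.19 from young to middle age. The sample descriptions number 6 bladders of 3 groups otherwise, and a block on those numbers was added after seeing the data. The description numbers gave no clear sign of pairing either (0.033 to 0.15 for the same groups, and -0.30 to 0.22 over all comparisons). So few pairs cannot exclude a shared batch. With the block on description numbers, 3, 6 and 8 members were called and 0 in the others. Timp4 then stood at 0.11 from young to middle age, and Mmp12 passed there (-1.44, adjusted p = 0.0446 by edgeR). Between young and middle age, the blocks moved the calls over all genes from 1811 to 716 and 893.

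Low counts limit Mmp12, Mmp13 and Timp4. With at least 10 counts in every bladder required, Mmp12 was not tested between middle and old age.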
